A study of Mus musculus with 8 samples.

Results

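The transcriptional response to lipopolysaccharide (LPS, a component of the outer membrane of Gram-negative bacteria) was examined in RAW 264.7 cells, a mouse macrophage line, that had already been given menthol. Cells treated with menthol for 1 h and then with LPS at 100 ng/ml for 6 h (LPS+M, 2 arrays) were compared to cells treated with menthol alone (M, 2 arrays). These 4 arrays were chosen by their treatment labels from the 8 arrays of the series, and the other 4, control (C) and LPS without menthol (LPS), were used to show where the response differed. All 8 were Affymetrix mouse genome arrays, read as log2 expression after GC-RMA, with 1 probe set per gene. Of 18193 genes with a probe set of their own, 8908 had a mean log2 expression over the 8 arrays above 4.84 and were tested. The labels give no menthol dose and no harvest time for the C and M cells, so the time since menthol may have been longer in LPS+M than in M and cannot be told apart from LPS. They call the replicates biological without saying whether these were separate cultures, so each p-value reflects array-to-array spread alone, which may be technical.

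LPS is recognised at the macrophage surface by Toll-like receptor 4 (TLR4) together with MD-2 (Ly96) and CD14. A branch through the adapter MyD88 activates NF-kB and MAP kinases within minutes and switches on cytokine and chemokine genes along with the inhibitors that later damp the signal. Another branch through TRIF activates interferon regulatory factors and leads to interferon-beta, whose own receptor then drives a later wave of antiviral genes. Menthol, the cooling alcohol of mint oil, is best known as an agonist of the cold receptor channel TRPM8.

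The arrays had medians of 2.99 to 3.04 on the log2 scale. All 12 macrophage markers, among them Lyz2, Cd68 and Csf1r, were above the minimum, whereas no marker of T cells, fibroblasts or epithelial cells was. Of the B cell markers only Ighm was above it, and of the neutrophil markers only S100a8 and Csf3r. The 8 reference genes, including Actb and Rplp0, were not called, with a median change of 0.01 on the log2 scale in LPS+M vs M. The first 2 principal components of the 8 arrays held 48.3% and 36.9% of the variance.

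LPS still changed many genes in the presence of menthol. A gene was called when the adjusted p of limma was under 0.05 and the change was at least 1.5-fold. In LPS+M compared to M, 213 genes (2.39% of those tested) were upregulated and 158 (1.77%) were downregulated. Of the upregulated genes, 98 rose more than 2-fold, 24 more than 4-fold and 6 more than 8-fold, while of the downregulated genes 38 fell more than 2-fold and 1 more than 4-fold. RNA from fewer cells of a kind and less RNA per cell cannot be told apart in these bulk samples. For 11 of the upregulated genes the mean in M was itself under the minimum of 4.84, so they passed the filter through the other groups. With 1 array left out at a time, the number of upregulated genes ranged from 198 to 228 and of downregulated genes from 121 to 202. Of the calls, 167 upregulated and 91 downregulated genes were called in all 8 of these fits.

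Most genes called as raised by LPS without menthol were called again with menthol, while a minority of those called as lowered were called again. LPS vs C, which shares no array with LPS+M vs M, had 282 upregulated genes (3.17%) and 264 downregulated genes (2.96%). Upregulated in both comparisons were 181 genes, which are 64.2% of the genes that LPS raised without menthol and 85% of those it raised with menthol. Downregulated in both were 105 genes, 39.8% and 66.5% of the respective lists. Of the 101 genes upregulated by LPS alone but not called in LPS+M vs M, 47 had an adjusted p under 0.05 there and fell short only of the 1.5-fold minimum. The same held for 76 of the 158 genes downregulated by LPS alone but not called in LPS+M vs M. With menthol the change kept its sign for 275 of the 282 raised genes and 257 of the 264 lowered genes. The 282 genes that LPS raised had a median log2 change of 0.94 without menthol and 0.74 with it, and the 264 that it lowered had medians of -0.76 and -0.51. These medians are over genes picked by their LPS vs C call. Over the genes picked by LPS+M vs M the raised genes had medians of 1.00 without menthol and 0.93 with it, and the lowered genes -0.73 and -0.78. The medians over all tested genes were -0.03 in both comparisons. Among the 34 genes raised more than 4-fold by LPS alone, all 34 were upregulated with menthol, 19 remained above 4-fold and 29 rose less than without it. These 34 genes too were picked by their change in LPS vs C. Of the 181 genes upregulated in both comparisons, 116 rose less with menthol and 65 rose more.

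**Figure D1:**
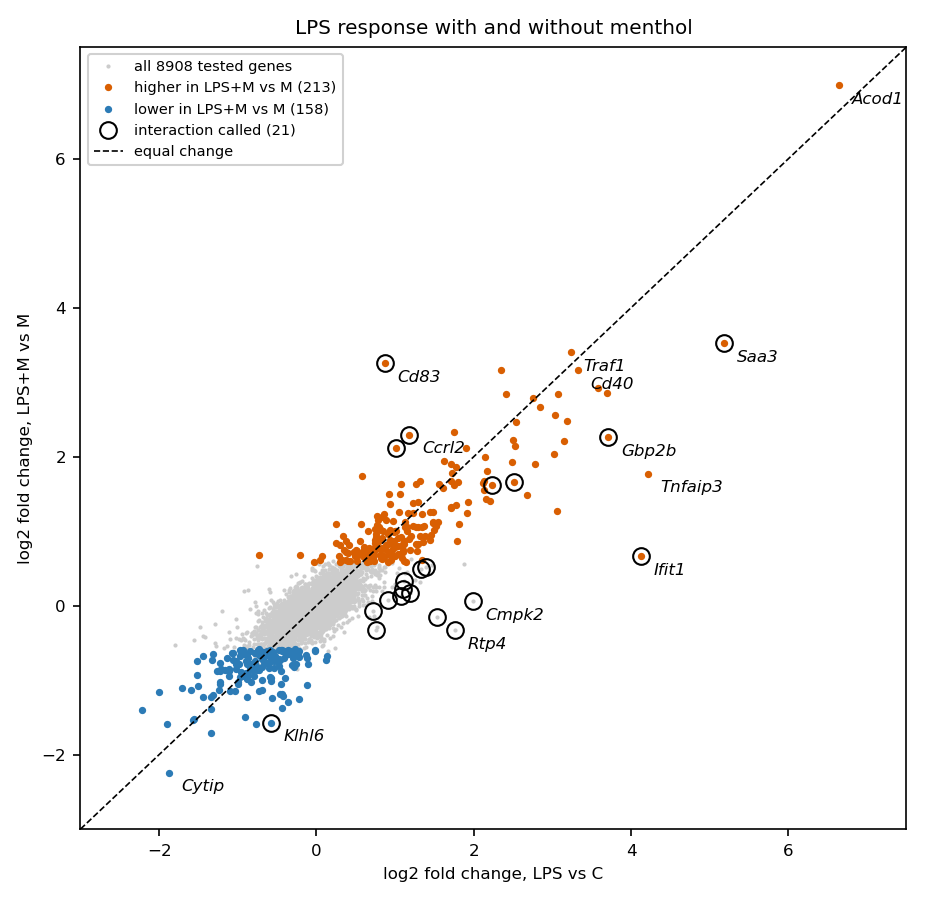
Log2 change of each of the 8908 tested genes in LPS+M vs M (vertical axis) against its log2 change in LPS vs C (horizontal axis). Orange points are the 213 genes upregulated and blue points the 158 downregulated in LPS+M vs M, and circles mark the 21 genes whose 2 responses differed in the interaction test; most circled genes lie below the diagonal.

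The difference between the 2 responses was tested for each gene as an interaction. It was called for 21 genes, 3 with a more positive response in the presence of menthol (0.0337%) and 18 with a more negative one (0.202%). Among the 282 genes raised by LPS alone, 17 rose less with menthol, 3 rose more and 262 were not called, which does not show that their responses were the same. Of the 34 genes raised more than 4-fold by LPS alone, 5 were called as rising less with menthol. Across the 8908 genes the 2 log2 changes had a Pearson correlation of 0.82 and a Spearman correlation of 0.69, given as a description, since genes are not independent replicates. Rps6kb2, which encodes a ribosomal S6 kinase and was singled out after its values were seen, was the 1 gene called in opposite directions. It was upregulated in LPS+M vs M (log2 change 0.68, adjusted p = 0.0275) and downregulated in LPS vs C (-0.73, adjusted p = 0.0148), and its interaction of 1.41 was not called (adjusted p = 0.0805).

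The strongest rise was in Acod1, the enzyme that makes the antimicrobial metabolite itaconate. Its log2 expression was 3.64 and 3.83 on the M arrays, below the minimum, and 10.79 and 10.66 on the LPS+M arrays, a log2 rise of 6.98. Acod1 was tested because of its LPS and LPS+M arrays, and the size of the rise depends on how GC-RMA sets values this low. The LPS arrays without menthol stood at 11.08 and 11.06, and the interaction was not called (adjusted p = 0.572). Cd40, the costimulatory receptor for CD40 ligand on T cells, went from 8.0 and 7.75 in M to 11.11 and 10.97 in LPS+M (log2 3.16 ± 0.11 SE, adjusted p = 3.79e-06). Lcn2, a protein that withholds siderophore iron from bacteria, went from 6.67 and 6.77 to 9.77 and 9.35, a 7.18-fold rise. For each of these genes both LPS+M arrays lay above both M arrays with no overlap, and the LPS arrays lay above the C arrays. Lack of overlap by itself was common, being seen for 4920 of the tested genes (55.2%) in one direction or the other.

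The other leading genes had varied roles. Traf1, a signalling adapter of the TNF receptor family, rose by 3.41 ± 0.22, with its LPS+M arrays at 8.20 and 7.42 and its M arrays at 4.29 and 4.52. Both M arrays lay below the expression minimum, so Traf1 passed the filter through the other groups. Fas, a death receptor, rose by 2.57, and Pstpip2, an adapter of the cytoskeleton in myeloid cells, by 2.93. Zc3h12a (Regnase-1), a ribonuclease that degrades cytokine mRNAs, rose by 2.79, or by 1.57 when its probe sets were averaged, and its relative Zc3h12c by 2.48. Ppfibp2, a protein of the liprin family, rose by 2.46. The glycoprotein Tpbg rose by 3.17, or by 2.06 when the mean of its probe sets was taken, and the receptor Gpr18 rose by 2.86. Gpr18 had already been higher in M (5.30 and 5.85) than in C (3.71 and 3.52).

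**Figure D2:**
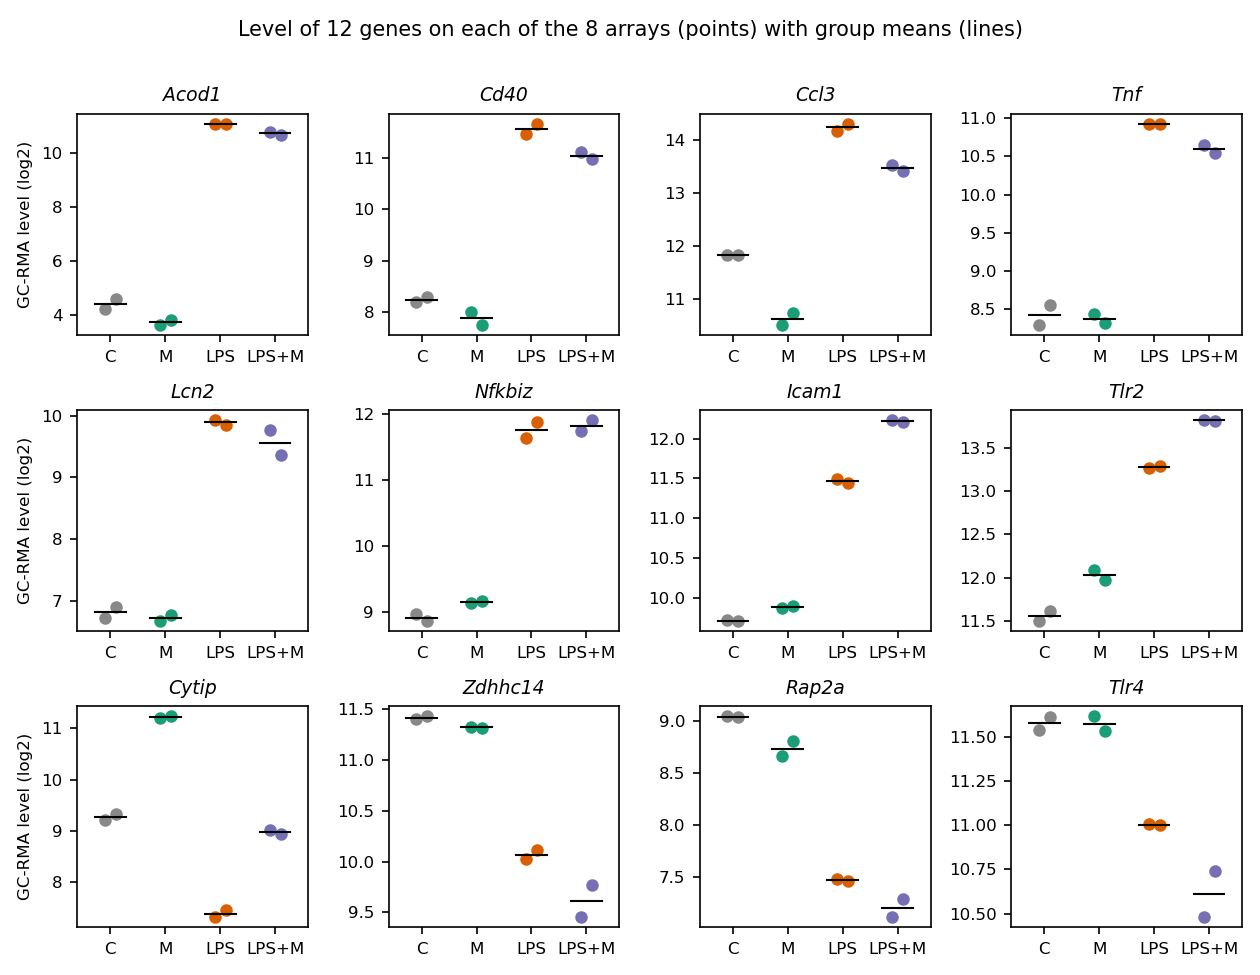
Log2 expression of 12 genes on each of the 8 arrays in the groups C, M, LPS and LPS+M; points are arrays and lines are group means. Acod1, Cd40, Ccl3, Tnf, Lcn2, Nfkbiz, Icam1 and Tlr2 lie higher in LPS+M than in M, and Cytip, Zdhhc14, Rap2a and Tlr4 lie lower.

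Of the receptors and accessory proteins that sense bacterial products, 10 were tested, 2 rose and 1 fell in LPS+M vs M, with a median of -0.15. The LPS receptor itself, Tlr4, fell by 0.97 ± 0.09 (adjusted p = 0.00045), from 11.62 and 11.54 in M to 10.48 and 10.74 in LPS+M. In LPS vs C its change was -0.57, under the 1.5-fold minimum, and the difference was not called (adjusted p = 0.329). Tlr2, the receptor for bacterial lipoproteins, rose from 12.09 and 11.98 to 13.82 and 13.81 (log2 1.78 ± 0.07), against 1.72 in LPS vs C. Tlr1, which pairs with Tlr2, rose by 0.83. The co-receptors Cd14 and Ly96 had changes of 0.12 and 0.26 and were not called. Of 16 adapters and kinases downstream, 2 rose: Ikbke, a kinase of the interferon branch, by 1.81 and Map3k8 (Tpl2), which feeds the ERK pathway, by 1.43.

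Several genes of the NF-kB system were upregulated with menthol. Of 10 subunits and IkB proteins tested, 5 rose and none fell in LPS+M vs M, with a median of 0.74, against 6 and a median of 0.89 in LPS vs C, and none was called in the interaction. Nfkbiz (IkB-zeta), a nuclear co-activator of secondary response genes, rose the most, from 9.14 and 9.17 to 11.74 and 11.90, although another probe set of Nfkbiz had a change of 0.17 and was not called, and the mean of its probe sets rose by 1.77. Bcl3 rose by 1.86, and Nfkb2 and Relb, the pair of the non-canonical pathway, both by 1.37. Nfkbia, the classical IkB that NF-kB induces to silence itself, went from 13.25 and 13.22 to 13.52 and 13.84. That change of 0.44 was under the minimum on the probe set used, while another probe set of Nfkbia had 0.72 and was called, and in LPS vs C Nfkbia rose by 1.12. Rel and Rela, the subunits that are mainly controlled at the protein level, had changes of 0.10 and 0.34 and were not called.

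Some negative regulators were raised as well. Of 17 feedback inhibitors tested, 8 rose and none fell in LPS+M vs M (median 0.50), against 8 in LPS vs C (median 0.49). Tnip1, a partner of the ubiquitin-editing enzyme A20, rose from 10.08 and 10.10 to 11.76 and 11.66 (log2 1.62 ± 0.07). Socs3, which blocks STAT3 signalling, rose by 2.21, from 8.76 and 8.46 to 10.89 and 10.77. A20 itself, Tnfaip3, had LPS+M arrays at 5.52 and 4.77 above M arrays at 3.35 and 3.40, a rise of 1.77 ± 0.27. Its M arrays and the LPS+M array at 4.77 lay below the expression minimum, so Tnfaip3 passed the filter through other arrays. Without menthol the same gene rose by 4.22, to 7.83 and 7.44, and the difference of -2.45 did not pass the test (adjusted p = 0.0723). Irak3 (IRAK-M), a pseudokinase that restrains TLR signalling, rose by 1.61 with menthol and 2.23 without, and its interaction of -0.62 was called (adjusted p = 0.0419), though of the 8 fits without 1 array it was called only in that without LPS+M replicate 2. None of the 7 MAP kinase phosphatases was called. Dusp1, whose product switches off p38 and JNK, went from 10.88 and 11.03 to 10.42 and 10.42, whereas in LPS vs C it fell by 1.80, and that difference was not called (adjusted p = 0.138).

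The promoters of 4 genes from these paragraphs and the next are shown because they hold matches to the kB motif before their start. They were taken from RefSeq on GRCm38.p6, run 5′ to 3′ on the strand of the gene up to the last base before the annotated start, and the capitals mark matches to the kB motif on either strand.
Nfkb2 (chr19:46304587-46304736, plus strand): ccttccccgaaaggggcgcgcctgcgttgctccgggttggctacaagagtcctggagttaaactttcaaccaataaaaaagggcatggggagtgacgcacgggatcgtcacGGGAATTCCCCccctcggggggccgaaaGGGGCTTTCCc
Tnip1 (chr11:54962941-54963090, minus strand): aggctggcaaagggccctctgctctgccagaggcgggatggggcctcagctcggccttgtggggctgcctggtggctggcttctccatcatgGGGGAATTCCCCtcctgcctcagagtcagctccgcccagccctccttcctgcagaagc
Tlr2 (chr3:83841609-83841808, minus strand): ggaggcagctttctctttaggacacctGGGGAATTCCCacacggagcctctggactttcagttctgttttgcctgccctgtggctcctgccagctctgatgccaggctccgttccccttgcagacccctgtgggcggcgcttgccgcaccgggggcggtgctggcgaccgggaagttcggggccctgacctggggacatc
Cxcl2 (chr5:90903749-90903898, plus strand): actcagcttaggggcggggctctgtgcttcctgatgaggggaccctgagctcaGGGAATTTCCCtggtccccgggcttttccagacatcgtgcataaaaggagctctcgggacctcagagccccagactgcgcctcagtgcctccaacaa
Nfkb2 had 3 annotated starts, and the one with the most matches is shown. In Nfkb2 overlapping matches began 39 and 38 bases before the start and another 11 bases before it. In Tnip1 the 3 matches overlapped and began 58, 57 and 56 bases before the start, and in Tlr2 and Cxcl2 overlapping pairs began at 173 and 172 and at 97 and 96 bases.

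Over all genes with a promoter in that table, 250 bases before to 50 after the start, the kB motif was found in 6.0% of 7362 tested genes, in 12.4% of 170 genes upregulated in LPS+M vs M and in 6.2% of 130 downregulated genes. The AP-1 motif (TGANTCA) was found in 5.8%, 12.9% and 13.8% of the same groups, and the CRE motif (TGACGTCA) in 3.9%, 1.8% and 1.5%. The TATA motif (TATAAA) was found in 8.1%, 11.8% and 18.5%. Both strands were read for every motif. Many genes described here, among them Acod1, Traf1, Ccl3, Lcn2, Tnf, Icam1 and Socs3, had no kB match in this window, while Bcl3, Csf1 and Sod2 had 1 each. These shares are a description of letters in the promoter and not of binding.

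The classical inflammatory cytokine of this line was still strongly induced. Tnf rose from 8.43 and 8.31 in M to 10.65 and 10.54 in LPS+M, a 4.67-fold rise (log2 2.22 ± 0.10, adjusted p = 8.7e-06). Without menthol it rose by 2.50, from 8.29 and 8.55 to 10.93 and 10.92, and the difference of -0.28 was not called (adjusted p = 0.559). Csf1, the growth factor of macrophages themselves, rose by 1.68, from 4.83 and 5.29 to 6.99 and 6.49. Il18 fell by 0.61, from 8.88 and 9.05 to 8.37 and 8.35, but its change was -0.52 without M replicate 2 and the call was lost. Of the cytokine genes looked for, 9 were tested and 14 were too low, including Il6, Il10, Il12b and Ifnb1, which lay under 4 on all 8 arrays. Il1b, the pyrogenic cytokine processed by caspase-1, was also below the minimum and not tested. It stood at 5.90 and 5.41 in LPS, at 3.14 and 3.22 in LPS+M, and between 3.08 and 3.10 in C and M.

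Chemokines that draw monocytes, neutrophils and T cells rose with menthol, in some cases from a lower starting level. Of 10 tested, 6 rose and none fell (median 0.69), and the same number rose in LPS vs C (median 0.81). Ccl3 (MIP-1alpha) went from 10.51 and 10.73 to 13.53 and 13.41, a rise of 2.85 ± 0.09 against 2.41 without menthol (interaction adjusted p = 0.278). Ccl4 (MIP-1beta) rose by 1.63 against 1.26, and Cxcl2 (MIP-2), a neutrophil attractant, by 1.14 against 0.88. These rises were measured against M, and M lay below C for Ccl3, Ccl4 and Ccl2. Ccl2 (MCP-1) illustrates this: it rose by 0.77 with menthol and 0.73 without, yet its LPS+M arrays at 11.72 and 11.48 lay below its untreated C arrays at 12.35 and 12.35. Cxcl10, a chemokine that interferons induce, rose by 1.48 with menthol, from 6.43 and 6.70 to 7.90 and 8.20. Without menthol it rose by 2.68, and the difference did not pass the test (adjusted p = 0.0595). Ccl5 rose by 0.61 with menthol, and the call was lost without M replicate 1 and without LPS+M replicate 1, with a change of at least 0.54. Among the chemokine receptors, Ccrl2, which binds chemerin, rose by 2.30, and Cxcr4, the receptor for CXCL12, fell by 0.68.

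Fewer interferon-stimulated genes were called when menthol was present. Of 28 antiviral genes tested, 4 rose and 1 fell in LPS+M vs M, with a median of 0.03, whereas 13 rose and 1 fell in LPS vs C, with a median of 0.43. The log2 change was lower with menthol (less positive or more negative) for 24 of the 28. The same was true of 48.3% of all 8908 tested genes and of 77% of the 282 genes raised by LPS alone, although those 282 were picked by the LPS vs C call. All 5 genes of this list called in the interaction responded less with menthol. Ifit1, whose protein binds viral RNA lacking a host cap, stood at 8.04 and 7.90 in LPS but at 4.14 and 4.59 in LPS+M, against 3.84 and 3.56 in M and 3.86 and 3.84 in C. It rose by 4.12 without menthol and by 0.67 with it, a difference of -3.45 (adjusted p = 0.00236). The call of the rise with menthol was lost without M replicate 2 (0.53, adjusted p = 0.147), without LPS+M replicate 2 (0.45, adjusted p = 0.0593), without the filter (adjusted p = 0.0887) and with only M and LPS+M in the fit (adjusted p = 0.0675). Ifit1 was under the minimum of 4.84 in C, M and LPS+M and was tested because of its LPS arrays. Its interaction was called in all 8 fits without 1 array, the only one of the 21 of which this was true, but it lost its call without the filter on low values (adjusted p = 0.0557).

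Rtp4 and Usp18, an interferon-induced chaperone and the protease that removes ISG15, had LPS+M arrays that did not exceed their M arrays. Rtp4 stood at 6.13 and 6.38 in M, 5.85 and 5.99 in LPS+M and 8.21 and 8.20 in LPS. Usp18 stood at 6.44 and 6.68 in M, 6.43 and 6.39 in LPS+M and 8.52 and 8.77 in LPS. Their interactions were -2.09 and -1.68 (adjusted p = 0.0182 and 0.0419), and that of Rtp4 was -1.04 when its probe sets were averaged (adjusted p = 0.0465). Cmpk2, a mitochondrial nucleotide kinase next to Rsad2 in the genome, rose by 1.99 without menthol and changed by 0.06 with it (interaction -1.94, adjusted p = 0.0419), and Ifit2 had 0.72 and -0.07 (interaction -0.80, adjusted p = 0.0419). With 1 array left out, the interaction of Rtp4 lost its call without either M array or LPS+M replicate 1 (adjusted p up to 0.123). That of Cmpk2 was called only without either LPS array, that of Usp18 only without C replicate 2 or LPS replicate 1, and that of Ifit2 in no such fit. Not every gene of the list behaved this way. Rsad2 (viperin), which makes an antiviral nucleotide, rose by 1.27 with menthol against 3.06 without, a difference that did not pass the test (adjusted p = 0.06). Parp14 rose by 1.0 in both comparisons and Tor3a by 0.66 and 0.95, but with menthol the call of Parp14 was lost when its probe sets were averaged (0.50), and another probe set of Tor3a had 0.47 and was not called. Ifnb1 itself was between 2.37 and 2.42 on all 8 arrays.

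The GTPases that attack vacuoles of intracellular microbes form another list of interferon-inducible genes. Of 8 tested, 3 rose with menthol (median 0.42) and 5 without (median 1.27), and the log2 change was lower with menthol for all 8. Gbp2b (GBP1) rose from 4.10 and 3.94 to 6.11 and 6.44 with menthol (log2 2.26) and to 7.84 and 7.86 without it (log2 3.71), a called difference of -1.45 (adjusted p = 0.0182) that kept its call only without LPS replicate 1 or either LPS+M array (adjusted p up to 0.0904). Both M arrays of Gbp2b lay below the expression minimum, so its rise and its interaction were tested because of the other groups. Gbp2 rose by 2.04 against 3.02 and Gbp3 by 2.15 against 2.53, and neither of these 2 differences was called. By comparison, the log2 change was lower with menthol for 4 of 10 NF-kB genes, 3 of 10 chemokines and 10 of 17 feedback inhibitors. No test was made between these lists.

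**Figure D3:**
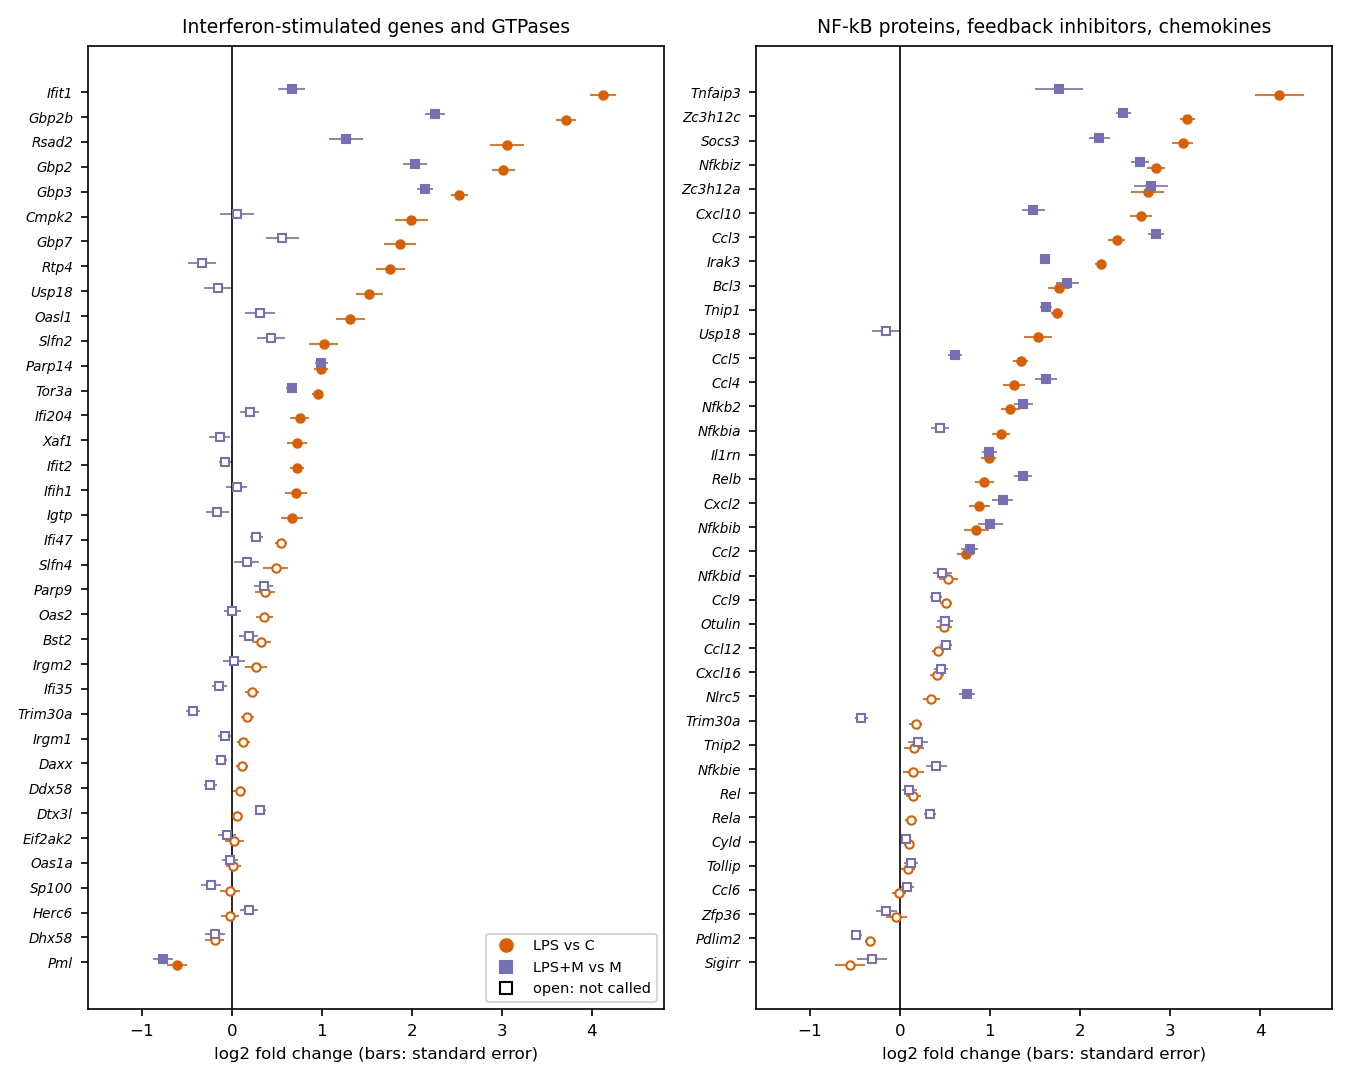
Log2 change with its standard error in LPS vs C and in LPS+M vs M for each tested interferon-stimulated gene and GTPase (left) and each NF-kB gene, feedback inhibitor and chemokine (right); open symbols were not called. On the left the log2 change is lower with menthol for 24 of 28 antiviral genes and 8 of 8 GTPases. On the right it is lower for 4 of 10 NF-kB genes, 10 of 17 feedback inhibitors and 3 of 10 chemokines.

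The promoters of 2 genes with a called interaction are shown because they hold the core of the interferon-stimulated response element (ISRE), GAAA followed by any 2 bases and GAAA. They are from the same table, and the capitals mark the core, read here on the opposite strand.
Ifit1 (chr19:34640739-34640888, plus strand): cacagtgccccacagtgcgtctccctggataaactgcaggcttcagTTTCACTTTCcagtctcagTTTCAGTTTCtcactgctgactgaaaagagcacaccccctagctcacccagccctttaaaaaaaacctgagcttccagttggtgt
Gbp2b (chr3:142594647-142594846, plus strand): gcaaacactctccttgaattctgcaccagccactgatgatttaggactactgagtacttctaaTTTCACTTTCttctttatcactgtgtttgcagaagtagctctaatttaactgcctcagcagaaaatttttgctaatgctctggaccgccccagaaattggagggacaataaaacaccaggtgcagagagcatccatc
Ifit1 held 2 cores, beginning 104 and 85 bases before the start, and Gbp2b held 1, beginning 137 bases before it. The ISRE core was found in 3.8% of the 7362 tested genes with a promoter, 8.8% of the 170 upregulated genes and 3.1% of the 130 downregulated genes. Of the 17 genes that rose less with menthol, 14 had a promoter in the table and 4 of these (28.6%) held the core, while 1 (7.1%) held a kB motif. The 4 were Ifit1, Gbp2b, Saa3 and Clec2d, whereas the promoters of Cmpk2 and Ifit2 held no core. The core was also found in Rsad2, Gbp2, Gbp3 and Cxcl10, whose interactions were not called.

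Some enzymes that make inflammatory mediators were raised. Of 15 enzymes of prostaglandin, nitric oxide, itaconate and superoxide metabolism tested, 5 rose and none fell in LPS+M vs M, Acod1 among them, with a median of 0.37 in either comparison. Ptgs2 (COX-2), the inducible step of prostaglandin synthesis, rose from 9.48 and 9.55 to 10.89 and 11.26 (log2 1.56 ± 0.13). Slc7a2, which imports arginine for nitric oxide synthesis, rose by 1.5, and Sod2 and Cybb, which remove and produce superoxide, rose by 1.26 and 0.91. Casp4 (caspase-11), the cytosolic LPS sensor, rose by 2.12, from 8.18 and 8.35 to 10.46 and 10.30. Saa3, an acute-phase apolipoprotein, ranked next after Acod1 among the rises, from 7.33 and 7.10 to 10.84 and 10.63 (log2 3.52). In LPS without menthol it reached 12.23 and 12.36, a rise of 5.18, and the interaction of -1.66 was called (adjusted p = 0.0145) except without C replicate 1 (adjusted p = 0.0547).

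Of 18 genes of adhesion, matrix and migration tested, 4 rose, 2 fell and 12 were not called, with a median of 0.05. Icam1, the ligand of LFA-1, had one of the tightest rises, from 9.88 and 9.91 in M to 12.23 and 12.20 in LPS+M (log2 2.33 ± 0.06, adjusted p = 1.14e-06). Without menthol Icam1 rose by 1.75, and its interaction of 0.57 had an adjusted p of 0.0496 but was under the 1.5-fold minimum. Itgal, the alpha chain of LFA-1, rose by 0.67. The list for antigen presentation and costimulation had 17 tested genes, of which 4 rose and none fell, and Cd83, a marker of mature antigen-presenting cells, rose more with menthol than without. Its arrays stood at 4.78 and 5.17 in M, 8.10 and 8.37 in LPS+M, 3.93 and 4.36 in C and 5.00 and 5.03 in LPS. The rise was 3.25 with menthol and 0.87 without, an interaction of 2.38 (adjusted p = 0.0182) whose call was lost without either M array or LPS+M replicate 1 (adjusted p up to 0.0812). Of 19 scavenger, Fc and C-type lectin receptors tested, 2 rose and 3 fell. Clec4e (Mincle), a receptor for mycobacterial glycolipid, rose by 1.05. The Fc receptors Fcgr1 and Fcgr3 fell by 0.79 and 0.75, close to their falls of 0.89 each in LPS vs C. Another Fc receptor, Fcgr2b, rose by 0.59. The call of Fcgr2b was lost without M replicate 1 (0.58), without LPS+M replicate 1 (0.53) and when its probe sets were averaged (0.50). Of 21 genes of survival and death tested, 5 rose and none fell, among them Traf1, Fas, Birc3 (0.73) and Gadd45b (0.87). When their probe sets were averaged, Birc3 and Gadd45b had 0.39 and 0.52 and lost their calls.

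Of 25 genes of cytokine receptors and JAK-STAT signalling tested, 3 rose, 1 fell and 21 were not called, with a median of -0.02. Tnfrsf1b (TNFR2) rose by 1.66, or by 1.01 when its probe sets were averaged, and the kinase Jak2 by 1.13. Of 11 G protein-coupled receptors of activated macrophages tested, 4 rose and 1 fell. Gpr84, a receptor for medium-chain fatty acids, rose by 1.39, from 11.77 and 11.71 to 13.22 and 13.05, and Gpr85 also by 1.39. Cysltr1, a receptor for cysteinyl leukotrienes, fell by 0.95, from 7.39 and 7.18 to 6.48 and 6.19, and the call was lost without M replicate 1 (-0.85, adjusted p = 0.0675). The counts in metabolic lists are given beside the 2.39% of all tested genes that were upregulated and the 1.77% that were downregulated. Of 18 genes of glycolysis and hypoxia, 1 rose, Hk2 by 1.02, which phosphorylates glucose, and of 16 genes of cholesterol synthesis none was called. Abca1, the exporter of cellular cholesterol, fell by 0.74, from 11.10 and 10.95 to 10.24 and 10.33. Its level in M was above that in C (9.22 and 9.38), so the LPS+M arrays still lay above the C arrays. When its probe sets were averaged, the change of Abca1 was -0.26 and the call was lost. Of 19 NRF2 targets and antioxidant genes, 2 rose: Slc7a11, the cystine importer, by 1.41 and the autophagy receptor Sqstm1 by 0.70. When its probe sets were averaged, Sqstm1 had 0.17 and lost its call (adjusted p = 0.294).

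Downregulation was on the whole shallower than upregulation. Cytip, which regulates cytohesins and integrin adhesion in leukocytes, fell the most, from 11.21 and 11.23 in M to 9.02 and 8.94 in LPS+M (log2 -2.24 ± 0.08, adjusted p = 3.79e-06). It also fell in LPS vs C, by 1.88, from 9.22 and 9.33 to 7.32 and 7.47, so the LPS+M arrays lay near the untreated level. The palmitoyltransferase Zdhhc14 fell by 1.71, from 11.32 on both M arrays to 9.45 and 9.77, although 1 of its other probe sets had a change of -0.05 and was not called. The small GTPase Rap2a fell by 1.54, from 8.66 and 8.80 to 7.11 and 7.29, against 1.57 in LPS vs C, although the mean of its probe sets fell by 0.76 with menthol. Pde3b, which breaks down cAMP, fell by 1.59, Eps8, an actin regulator, by 1.59 and Ctla2a, a protease inhibitor-like protein, by 1.5. The probes may not separate Ctla2a from its near-identical paralog Ctla2b, which fell by 1.23, and Eps8 had a further probe set at -0.77 that was not called. The transcription factors Maf and Nr4a2 fell by 0.77 and 1.25. Also among the 15 strongest falls were Etl4 (-1.53), Il18rap (-1.40), Tmcc3 (-1.39), Cnnm2 (-1.38) and Pram1 (-1.24). The call of Il18rap was lost without M replicate 2 and without LPS+M replicate 1, and that of Tmcc3 without either M array and without LPS+M replicate 1 (adjusted p up to 0.0829 and 0.0761).

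Klhl6, a ubiquitin ligase adapter of lymphoid and myeloid cells, was the only downregulated gene with a called interaction. It stood at 7.61 and 7.67 in M and 6.07 and 6.06 in LPS+M, a fall of 1.57 ± 0.06, against 7.99 and 8.02 in C and 7.43 and 7.44 in LPS, a change of -0.57. The interaction of -1.0 (adjusted p = 0.0105) lost its call without C replicate 1 and without M replicate 2, at an adjusted p of up to 0.0708. Of 31 genes of DNA replication tested, 3 fell and 28 were not called in LPS+M vs M (median -0.25), and 3 also fell in LPS vs C (median -0.45). The 3 called in each comparison differed. With menthol they were Cdc6, which loads the replicative helicase and fell by 1.18 from 8.66 and 8.64 to 7.34 and 7.59, Ccne1, a G1/S cyclin, which fell by 0.88, and Ccne2. Ccne2 fell by 1.29, but without M replicate 1 the adjusted p was 0.0613. None of the differences for these 3 genes was called. Of 27 mitosis genes none was called in either comparison.

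**Figure D4:**
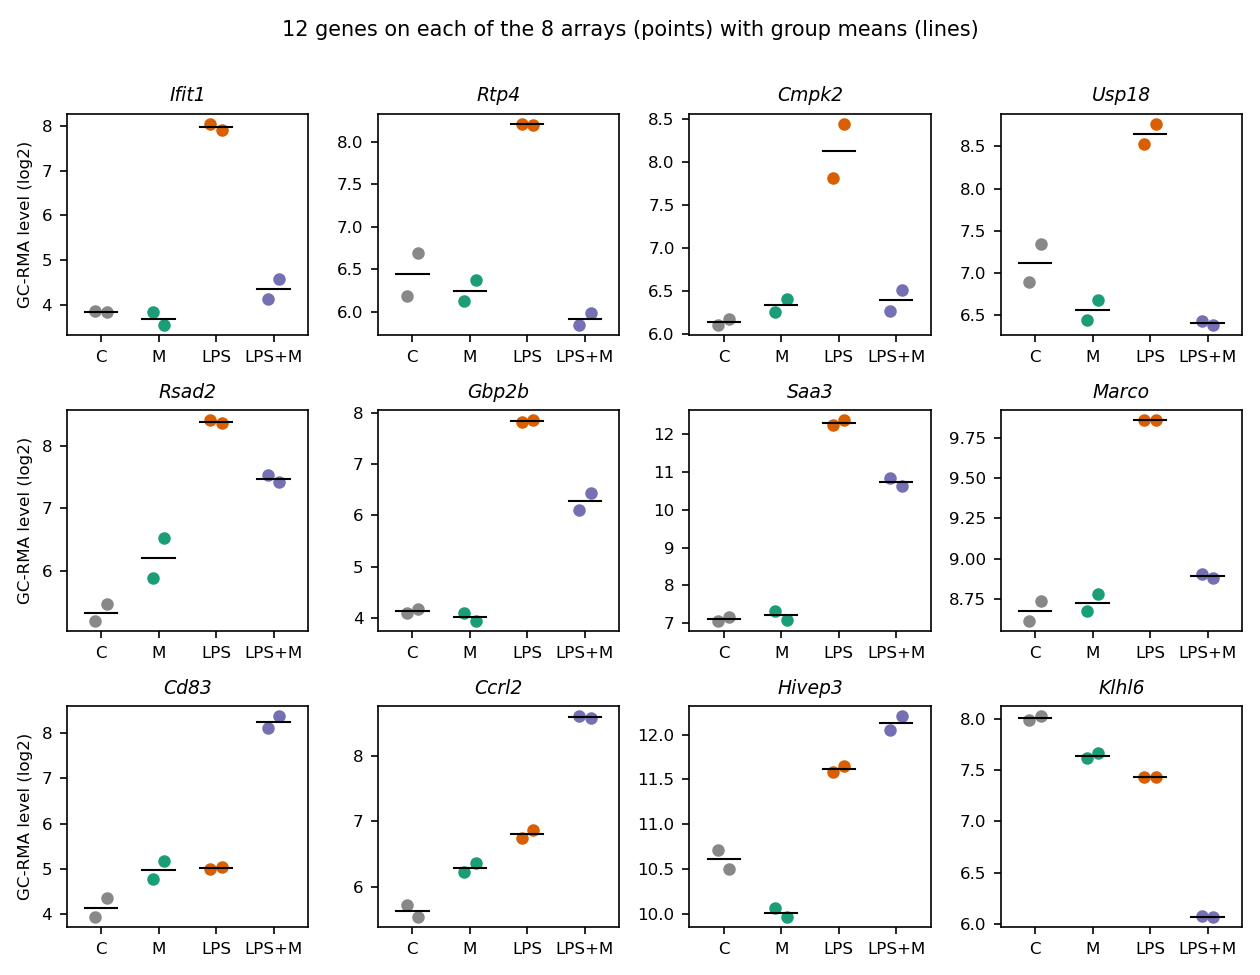
Log2 expression on each of the 8 arrays, in the groups C, M, LPS and LPS+M, of 12 genes, all but Rsad2 called in the interaction; points are arrays and lines are group means. Ifit1, Rtp4, Cmpk2 and Usp18 lie far higher in LPS than in LPS+M, Cd83, Ccrl2 and Hivep3 lie higher in LPS+M than in LPS, and Klhl6 is lowest in LPS+M.

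Other called interactions were spread over several kinds of gene. Marco, a scavenger receptor for bacteria, rose from 8.61 and 8.74 in C to 9.86 and 9.86 in LPS, but was at 8.67 and 8.78 in M and 8.90 and 8.88 in LPS+M (interaction -1.02, adjusted p = 0.0172). Ptger4, a receptor for prostaglandin E2, rose by 1.33 without menthol and changed by 0.49 with it (interaction -0.84, adjusted p = 0.0182). Inka1, an inhibitor of the kinase PAK4, had 0.75 and -0.33 (interaction -1.08, adjusted p = 0.0419). On the other side, Ccrl2 rose by 2.30 with menthol and 1.18 without (interaction 1.12, adjusted p = 0.0182), and Hivep3, a zinc finger protein that binds kB-like DNA, rose by 2.11 and 1.00 (interaction 1.11, adjusted p = 0.0222). The other 6 called interactions, chosen for naming after their values were seen, were Myc (-0.95), Otud1 (-0.87), Pde4b (-0.87), Cyria (-0.84), Clec2d (-0.83) and Gphn (-0.79), and none of the 6 kept its call in more than 2 of the 8 fits without 1 array. The calls of this paragraph depended on the filter and on single arrays. With 1 array left out, those of Marco and Ccrl2 were lost without C replicate 1, either M array or LPS+M replicate 1, that of Ptger4 was kept only without LPS replicate 2 or LPS+M replicate 2, that of Hivep3 only without C replicate 2 or LPS+M replicate 2, and that of Inka1 only without LPS replicate 1. Without the filter on low values 1 interaction was called, that of Klhl6, and with 1 array left out the number with a more negative response ranged from 2 to 32 and with a more positive response from 0 to 10. At an unadjusted p under 0.05 and 1.5-fold, 70 and 54 genes were called.

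A further set of genes was called in LPS+M vs M but not in LPS vs C. Of 31 genes upregulated in LPS+M vs M and not called in LPS vs C, none was called in the interaction, so none was shown to respond differently. The largest rise among them was in Rab11fip1, an effector of recycling endosomes singled out after its values were seen, by 1.74 against 0.58 (interaction adjusted p = 0.123). Atf3, a stress-induced repressor of cytokine genes, rose by 0.86, from 10.19 and 10.25 to 11.18 and 10.98, against 0.56 in LPS vs C. Of 48 tested genes that the study itself names, 19 rose and 6 fell in LPS+M vs M, against 28 and 5 in LPS vs C, but the study picked this list from the same arrays, so it is not independent evidence.

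**Figure D5:**
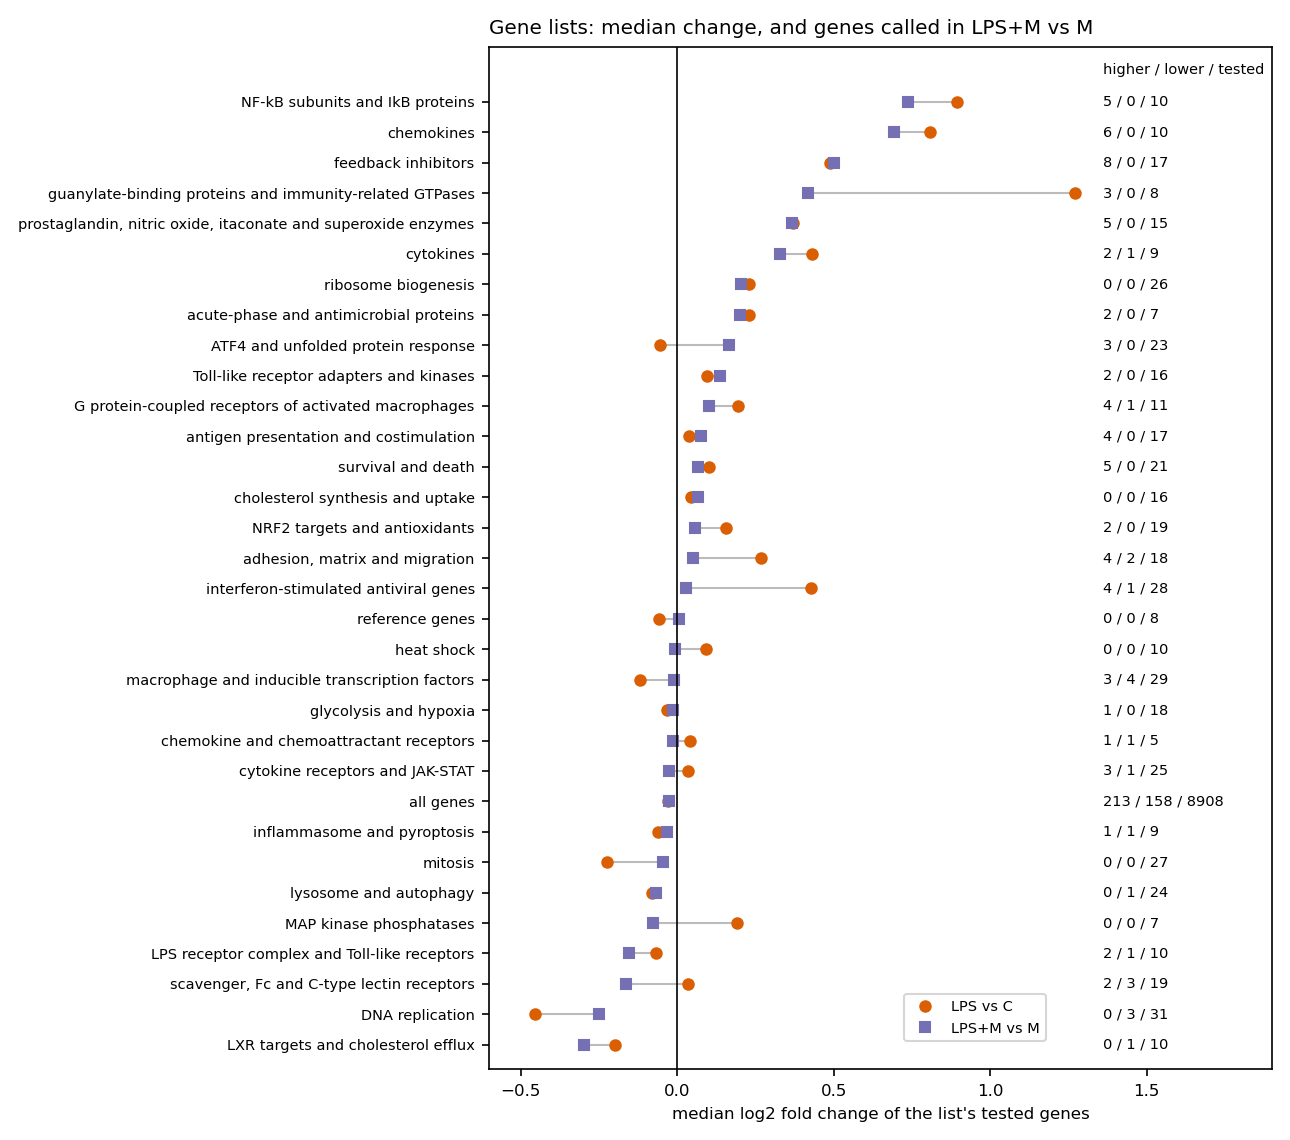
Median log2 change of the tested genes of each list in LPS vs C (circles) and LPS+M vs M (squares), with the numbers upregulated, downregulated and tested beside each list. The NF-kB and chemokine medians lie near each other in the 2 comparisons, while the GTPase median is 1.27 without menthol and 0.42 with it.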

How the data were processed

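RNA from RAW 264.7 cells was amplified, labelled with biotin and hybridised to 8 arrays, 2 in each of 4 groups given by the labels. The values are the log2 expression that the authors deposited, made with GC-RMA (per the submitters' processing notes, R 2.6.1 with GCRMA 2.10.0), which subtracts background by probe sequence, quantile-normalizes the arrays and summarises each probe set. Quantile normalization sets the arrays to nearly 1 distribution, so a shift of all genes would not be seen, and low values lie near a floor that shrinks fold changes. Of 45101 probe sets, 34945 had 1 gene symbol in the platform annotation, 932 several, 9160 none, and 64 were controls. Where a gene had several, the brightest by its 8-array mean stood for it.

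Genes with a mean above 4.84 were tested with limma 3.58.1 (R 4.3.3) over all 8 arrays, with 1 coefficient per group, 4 residual degrees of freedom and Benjamini-Hochberg adjustment over 8908 genes. The contrasts were LPS+M vs M, LPS vs C and their difference, the interaction. Errors are standard errors of the log2 change. The number of arrays limits the precision: an exact permutation test of 2 against 2 cannot go below a two-sided p of 0.333. Values of untested genes are given without a call. The scripts were tested on simulated data.

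The rule for named genes took the 15 genes with the largest rise and the 15 with the largest fall among those called, the 8 called interactions with the largest change in each direction, up to 5 called members of each gene list, members of short lists, and genes that the study names; not every one is described. Members and lists were chosen with earlier results of these data known. Some listed genes had no probe set with 1 symbol and were not analysed here. Promoters (250 bases before to 50 after the start) are RefSeq's on GRCm38.p6. The alternatives were other filters, probe set rules, normalizations, fold minimums and tests, the replicate number as a block, and leaving out each array. Figures were drawn with matplotlib 3.10.9.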

Additional observations from a re-analysis of the deposited data

Results flagged for a closer look

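The response to LPS was called as different between cells with and without menthol for 21 genes by the interaction test of limma. All but Ifit1 lost the call in at least 1 of the fits without 1 array. Without the filter on low values only 1 interaction was called. The log2 differences (LPS+M minus M, less LPS minus C) were -3.45 for Ifit1, -2.09 for Rtp4, -1.94 for Cmpk2, -1.68 for Usp18, -1.66 for Saa3 and -1.45 for Gbp2b. They were -1.08 for Inka1, -1.02 for Marco, -1.0 for Klhl6, -0.84 for Ptger4, -0.80 for Ifit2 and -0.62 for Irak3. The 3 positive differences were 1.11 for Hivep3, 1.12 for Ccrl2 and 2.38 for Cd83. The other called interactions, all negative, are given above.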

How the results depend on the processing

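For LPS+M vs M, 213 upregulated and 158 downregulated genes became 583 and 685 with no fold minimum, 98 and 38 at 2-fold, and 145 and 72 under the methods' t-test at its unadjusted threshold. After Benjamini-Hochberg adjustment of that t-test they were 0 and 0. Averaging each gene's probe sets, 160 genes were upregulated and 100 downregulated. For LPS vs C, 282 and 264 genes became 813 and 1122 with no fold minimum, 126 and 58 at 2-fold, 0 and 0 under the adjusted t-test, and 144 downregulated genes under the unadjusted one. Upregulated in both were 438 genes with no fold minimum, 79 at 2-fold, 101 under the t-test and 0 after its adjustment. Downregulated in both were 492 with no fold minimum, 20 at 2-fold, 33 under the t-test, 0 after its adjustment and 68 with the mean of probe sets. The interaction, 3 positive and 18 negative, became 0 and 1 with no filter, 0 and 2 with every probe set tested by itself, 54 and 70 at an unadjusted p, and 14 and 31 with trend and robust estimation. With the mean of probe sets 5 were positive, and at 2-fold 8 were negative. It was not run with the t-test or with only the groups compared. Reversal of sign was checked only for the named genes in LPS+M vs M and for the called interactions. Among these no called change reversed its sign. With 1 array left out, upregulated genes ranged from 198 to 228 and downregulated genes from 121 to 202 in LPS+M vs M, from 267 to 293 and 237 to 337 in LPS vs C, and from 167 to 183 and 81 to 103 in both, while the interaction ranged from 0 to 10 positive and 2 to 32 negative. The causes were not tested, beyond the fewer arrays or other limits each setting has by construction.

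The labels do not say whether same-numbered arrays of different groups were handled together, and the main fit did not pair them. Correlations of their deviations ran from -0.121 to 0.186, which cannot settle whether they were paired. With the replicate block, LPS+M vs M had 213 and 161 genes, LPS vs C 283 and 266, both comparisons 181 and 106, and the interaction 4 positive and 16 negative. The block changed none of the 177 calls for single genes in LPS+M vs M, but the interaction calls of Gphn, Ifit2, Inka1, Irak3 and Pde4b were lost (adjusted p = 0.0556, 0.0663, 0.0599, 0.0689 and 0.0663). Of 107 called genes among them, 87 kept the call in all 8 fits without 1 array.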

Other observations

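Several lists have not been described above for LPS+M vs M, in which 2.39% of all tested genes were upregulated and 1.77% downregulated. Of 23 genes of ATF4 signalling and the unfolded protein response, 3 rose and none fell (median 0.17), whereas in LPS vs C 1 rose and 3 fell (median -0.06). The 3 were Atf3, Herpud1, a protein of endoplasmic reticulum degradation that rose by 0.67, and Cth, an enzyme of cysteine synthesis that rose by 0.59. The call of Herpud1 was lost without LPS+M replicate 1 (change 0.58) and in another probe set (0.58), and that of Cth without M replicate 1 and without LPS+M replicate 2 (change at least 0.54) and when the arrays were set to a common median (0.57). None of 10 heat shock genes and none of 26 ribosome biogenesis genes was called. Of 24 genes of lysosome and autophagy 1 fell, Tfeb, which activates lysosomal genes, by 0.80, from 5.42 and 5.53 in M to 4.81 and 4.54 in LPS+M. Its change in LPS vs C was -0.32, and the difference was not called (adjusted p = 0.399).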
